A study of Caenorhabditis elegans with 3 samples.

Results

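The genes described here are pseudogenes of Caenorhabditis elegans whose transcripts were found in the dissected germline. They were chosen from the deposited count table as the genes of biotype pseudogene with at least 1 CPM (the read count scaled to the library's total) in each of the 3 libraries. Of 1658 pseudogenes among 46739 genes, 135 met this rule. The rule uses the measured counts, so the levels below are a description and carry no test. All 3 libraries belong to 1 group, germlines dissected from N2, the wild-type laboratory strain. Nothing in the labels ties the replicates to separate animals or cultures, and the spread between them may therefore be technical. No comparison between conditions exists in this design.

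A pseudogene is a sequence that resembles a gene but is not thought to encode a working protein or structural RNA. Many arise when a gene is copied and one copy decays, and others when a transcript is reverse transcribed and inserted, which leaves a copy without introns. Pseudogenes can still be transcribed, and large nematode families such as the chemoreceptor and F-box genes hold many of them. Reads of a pseudogene and of a near-identical gene can be assigned to either, so the level of any recent copy is uncertain.

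The libraries held 14523486, 15566299 and 16656171 counts in replicates 1, 2 and 3, so that 1 CPM stood for 14.5, 15.6 and 16.7 reads. A count of 0 allows a level of up to 0.207, 0.193 and 0.18 CPM, which is 3 counts of the total. These limits and the intervals below cover counting error only, because the kit amplifies by PCR and carries no molecular identifiers. All 10 oocyte markers and all 6 markers of meiotic germ cells were above 1 CPM in each library, as were 6 of 10 sperm markers, all 5 markers of gonadal sheath and spermatheca and all 4 muscle markers. The intestine (3 of 5), cuticle (2 of 4) and neuron (2 of 4) lists were found in part. Of the intestinal genes, vit-2 had 116.2, 483.6 and 255.5 CPM in replicates 1 to 3 and vit-6 had 108.5, 516.8 and 266.7 CPM. The gene asp-1 had 46.6, 23.1 and 8.89 CPM, while ges-1 stayed at or under 0.413 CPM and the intestinal regulator gene elt-2 at or under 0.18 CPM. The sum of the 10 sperm markers was 4092, 470.2 and 1239 CPM in replicates 1, 2 and 3.

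Transcribed pseudogenes were the minority of their class. The rule was met by 8.14% of pseudogenes, against 40.2% of protein-coding genes (8194 of 20362), 4.73% of lincRNA genes (8 of 169) and 17.9% of all genes. No count in any library was found for 1044 pseudogenes, and another 479 were counted but missed the rule, 103 of them with 1 CPM or more in at least 1 library. The 135 genes held 0.331%, 0.299% and 0.347% of all counts in replicates 1 to 3, and 89.5%, 96.8% and 93% of the counts on pseudogenes. The 5 highest alone took 58.2%, 53.2% and 51.9% of the counts on the 135, so their sum is carried by few genes.

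Just inside the threshold lay C33E10.3 (2.2, 2.06 and 1.02 CPM in replicates 1 to 3), bath-11 (1.03, 1.09 and 2.34 CPM) and Y95D11A.2 (1.03, 1.99 and 1.38 CPM). Just outside lay Y48A6C.1 (0.964, 1.16 and 1.26 CPM), srh-9 (0.964, 1.48 and 1.5 CPM) and W04B5.1 (2.34, 1.61 and 0.961 CPM). For bath-11, 15 counts in replicate 1 gave an exact Poisson 95% interval of 0.578 to 1.7 CPM, and for srh-9, 14 counts gave 0.527 to 1.62 CPM. At this depth the genes on either side of the threshold were not separated.

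Levels were low for most of the 135. The median of the mean CPM was 4.48, with quartiles at 2.49 and 11.7, against 32 for protein-coding genes that met the same rule. In 93 of 135 (68.9%) the mean was under 10 CPM, and in 7 it was at least 100 CPM. Per length, the median was 5.17 TPM (transcript abundance, corrected for the exon length in the reference annotation) against 23.8 TPM for the protein-coding genes. The longest and shortest of the 135 had 3431 and 73 exon bases.

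**Figure D1:**
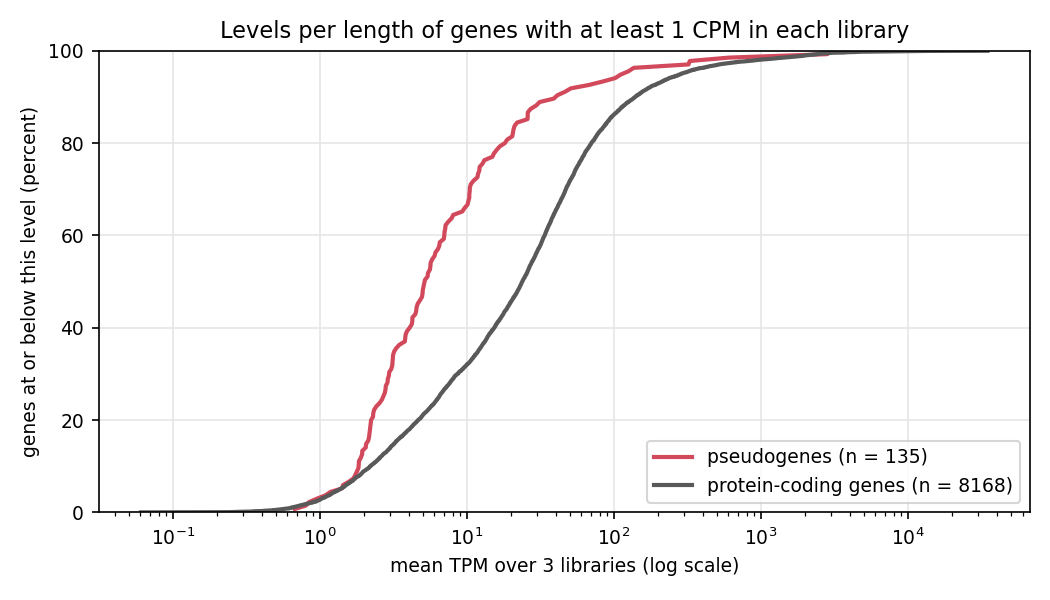
Cumulative share of genes (vertical axis, percent) at or below a mean TPM over the 3 libraries (horizontal axis, log scale), for the 135 pseudogenes and 8168 protein-coding genes with a known exon length, all with at least 1 CPM in each library. The pseudogene curve lies to the left over most of its range, with a median of 5.17 TPM against 23.8 TPM.

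The most abundant was F54D7.7 (WBGene00023068, chromosome I, 4790292 to 4790642 on WBcel235), at 829.8, 798.4 and 801 CPM. The 3 libraries lay within a ratio of 1.04. The Ensembl annotation of WBcel235 used here gives this gene as protein coding, and its current symbol is rpl-41.2, a gene of the small ribosomal protein L41 of the large subunit. Its neighbour F54D7.6 (chromosome I, 4789190 to 4789592), now rpl-41.1, also a protein-coding gene there, had 39.2, 46.3 and 40.6 CPM. The gap between them was 699 bases, and the levels per length were 3093 ± 52.5 TPM for F54D7.7 and 136.1 ± 14.6 TPM for F54D7.6 (SD, n = 3).

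In all, 7 of the 135 genes were protein coding and 1 was a lincRNA in the current annotation, while 127 (94.1%) were still pseudogenes. Of the 1523 other pseudogenes of the table, 98.9% were still pseudogenes and 11 were protein coding. Besides the L41 genes, the reclassified coding genes were F45H11.8 (16.2, 20.2 and 22 CPM), F45B8.5 (10.7, 13 and 9.25 CPM), C38D4.10, F23H12.10 and C29E4.9, the last 3 with mean levels between 1.71 and 2.31 CPM. The lincRNA was F39E9.10 (2, 1.35 and 2.22 CPM). Without these 8 genes and without genes that share exon bases with another gene, 110 remained, with a sum of 2110, 1795 and 2298 CPM against 3309, 2987 and 3471 CPM for all 135.

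C06A1.4 (WBGene00014667, chromosome II, 10574842 to 10578193, 11 exons) was the highest gene that is still a pseudogene, at 257.9, 282.8 and 283.3 CPM. It was even across the libraries, and shared no exon base with another gene. Its neighbours on either side differed from it in level and pattern. C06A1.3, 774 bases away on the other strand, had 59.8, 5.91 and 22.7 CPM, and the RNA polymerase subunit gene rpb-6, 1186 bases away, had 72, 63.1 and 74.8 CPM.

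F59A7.8 (chromosome V, 2008609 to 2011620, 6 exons) had 58, 51.5 and 74.1 CPM, or 25.8 ± 5.5 TPM (SD, n = 3), and was highest in replicate 3. Its neighbours were far lower, cysl-4 at 4.54, 0.128 and 1.56 CPM and F59A7.7 at 0.551, 0.45 and 1.38 CPM.

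A stretch of chromosome II from 8784535 to 8789716 held 3 transcribed pseudogenes in a row on one strand. F07H5.3 (4 exons) had 231.6, 276.2 and 206 CPM, F07H5.5 (8 exons) had 92.7, 80.2 and 126.3 CPM, and F07H5.4 between them had 3.44, 2.31 and 2.88 CPM. Per length, F07H5.3 had 321 ± 48.6 TPM, F07H5.5 had 67.5 ± 17.7 TPM and F07H5.4 had 4.98 TPM. The nearest protein-coding genes, sgn-1 and F07H5.13, had means of 0.51 and 1 CPM. The high genes thus stood among low ones, and the middle gene of the row was low too.

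**Figure D2:**
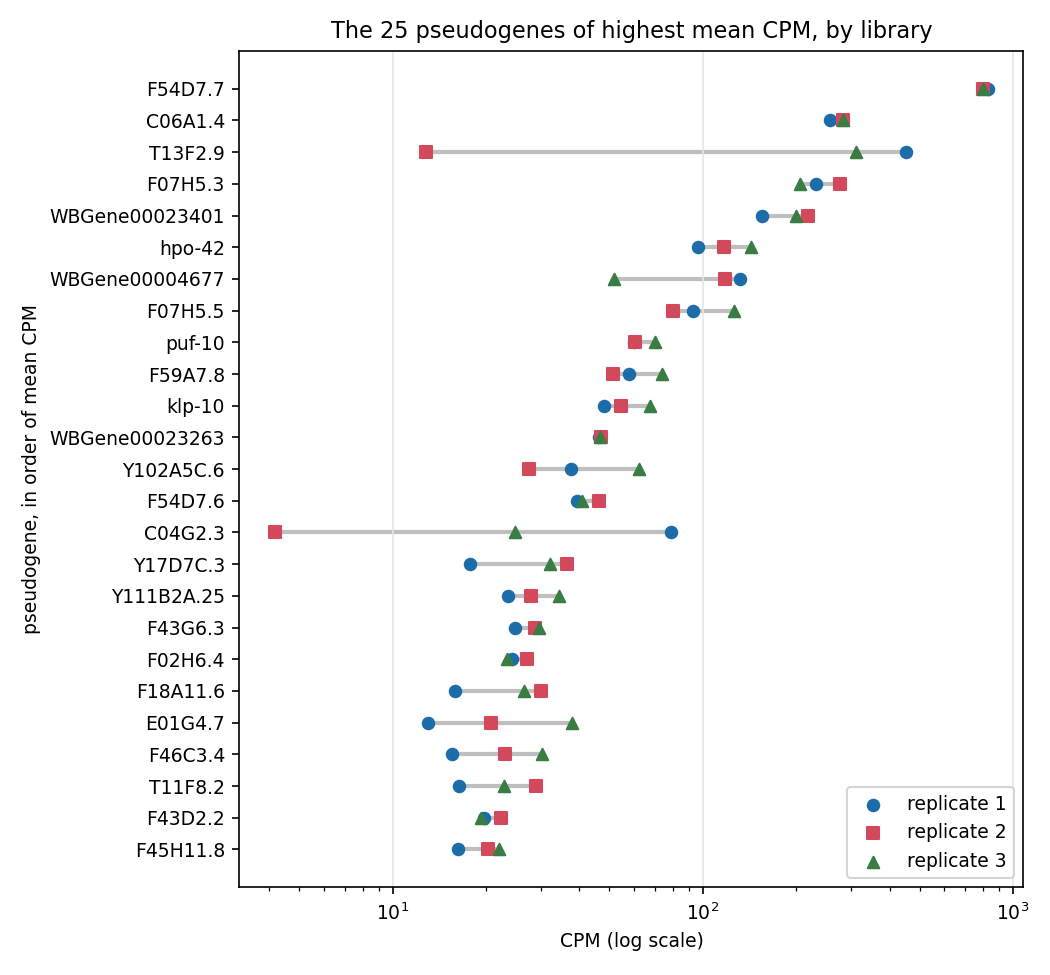
CPM (horizontal axis, log scale) of the 25 pseudogenes of highest mean, 1 row a gene, with a point for each of the 3 libraries and a grey line over their range. For most genes the points lie close together, while T13F2.9 (450.6, 12.8 and 310.9 CPM) and C04G2.3 (79.1, 4.18 and 24.8 CPM) were far lower in replicate 2.

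Among the highest were 3 genes that the deposited table leaves without a name and whose positions match RefSeq entries for decayed structural RNA genes. WBGene00023401 (X, 1643850 to 1643922), which RefSeq lists as the tRNA pseudogene ZK380.t2, had 154.9, 218.1 and 199.7 CPM on 73 bases. The nearest protein-coding genes lay 8122 and 7496 bases away and had at most 0.207 CPM in any library. WBGene00023263 (X, 1474006 to 1474087), the tRNA pseudogene D1005.t1, had 46.1, 46.8 and 46.7 CPM on 82 bases. Per length these genes ranked just below F54D7.7, at 2808 ± 552 and 607.7 ± 25.7 TPM. On features so short, a level per length depends strongly on how reads that reach past the ends were counted, which is not given in the sources used here.

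WBGene00004677 (chromosome I, 15060299 to 15061150) is the rRNA pseudogene rrn-3.56 in RefSeq, next to the ribosomal DNA. It had 132.2, 117.7 and 51.9 CPM and was lowest in replicate 3. The large-subunit rRNA gene rrn-3.1, downstream on the same strand, was also lowest in replicate 3, at 66720, 82250 and 42080 CPM. The order of replicates 1 and 2 differed between rrn-3.56 and rrn-3.1. Of the rRNA genes that lie between them, rrn-1.1 had 1.86, 3.47 and 5.4 CPM and was highest in replicate 3. In contrast, rrn-2.1 had 5225, 7582 and 3783 CPM and was lowest there. Counts on all rRNA genes made up 7.24%, 9.04% and 4.61% of the libraries, and their part in the level of rrn-3.56 was not tested.

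Some of the 135 carry the name of a gene family that works in the germline. The PUF proteins bind 3' untranslated regions of mRNAs and control translation in germ cells and oocytes. The pseudogene puf-10 (chromosome I, 212256 to 215491) had 60.2, 60.3 and 70.1 CPM, or 46.4 ± 5.48 TPM. It stood below all 5 protein-coding PUF genes examined, from puf-6 (87.4 TPM) and puf-7 (127 TPM) through puf-11 (285 TPM) and puf-3 (337 TPM) to puf-5 (681 TPM). The kinesin pseudogene klp-10 (chromosome IV, 7797192 to 7800252) had 48, 54.4 and 67.4 CPM, or 21.9 ± 4.52 TPM. The motor genes klp-18, needed for the oocyte spindle, and klp-7, a microtubule depolymerase, had 53.7 and 61.7 TPM. These relatives, and those that follow, were chosen by symbol and after values were seen.

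Relatives of other named pseudogenes, picked in the same way, were higher in all cases but 1. This tally covers the relatives picked and does not describe whole families. The cytochrome P450 pseudogene cyp-31A1 had 6.47, 5.4 and 9.07 CPM, or 5.39 TPM, against 82 TPM for cyp-31A2 and 53.4 TPM for cyp-31A3, which act in eggshell formation. The pseudogene cars-2 had 2.69, 3.73 and 3.6 CPM, or 2.06 TPM, against 87.4 TPM for the cysteinyl-tRNA synthetase gene cars-1, a ratio of 0.0235. The pseudogene drh-2 had 2.34, 1.48 and 3.12 CPM, or 0.8 TPM, against 16.5 TPM for drh-1, which acts in antiviral RNA interference, and 35.1 TPM for drh-3, which acts in germline small RNA pathways. For miro-3 (1.79, 2.12 and 3.06 CPM, 1.69 TPM) the relatives split. The mitochondrial GTPase gene miro-1 stood at 23.9 TPM, and miro-2, at 0.113 TPM and at most 0.275 CPM in any library, was the only relative examined that was lower than its pseudogene. The Skp1-related pseudogene skr-11 (5.85, 5.97 and 5.82 CPM, 10.1 TPM) lay below skr-7 (26.5 TPM), skr-1 (137 TPM) and skr-2 (155 TPM), of which the last pair encode subunits of SCF ubiquitin ligases. Of the coding genes, 11 of 20 skr and 11 of 75 cyp genes met the rule. The median of those that did was 15.3 TPM for skr, above skr-11, and 4.49 TPM for cyp, below cyp-31A1. Whether reads are shared with the relatives examined was not tested.

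By family, the F-box and BTB-MATH genes supplied most of the named pseudogenes. F-box A proteins are adaptors that carry substrates to SCF ubiquitin ligases, and BATH proteins, with a MATH and a BTB domain, do so for CUL-3 ligases. Of 37 fbxa pseudogenes, 13 met the rule (35.1%), against 30 of 185 protein-coding fbxa genes (16.2%). Their mean levels ran from 1.82 to 11.1 CPM. The highest were fbxa-203 at 7.16, 11.6 and 14.7 CPM and fbxa-129 at 7.78, 9.31 and 8.65 CPM. Of 7 bath pseudogenes, 4 met the rule (57.1%), against 25 of 37 coding bath genes (67.6%), with bath-12 at 2.96, 4.3 and 11 CPM and bath-6 at 3.1, 3.34 and 5.04 CPM. In both families the levels per length were low, with a median of 2.8 TPM for the fbxa pseudogenes against 4.87 TPM for the detected coding fbxa genes, and of 4.5 TPM against 12.1 TPM for bath.

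Chemoreceptor pseudogenes, from families that work in sensory neurons, were nearly all silent at this depth. Of 291, 259 had no count in any library and 1 met the rule. That one was sri-8 (chromosome II, 10472439 to 10473726), at 11.5, 10.9 and 11.7 CPM, even across the libraries. Of 61 coding sri genes, 1 met the rule as well, sri-40 at a mean of 870 CPM. Of the 10 families with at least 10 pseudogenes in the table, 8 had no gene that met the rule, among them srh (0 of 70), srz (0 of 37), the C-type lectins clec (0 of 16) and the nuclear hormone receptors nhr (0 of 10). The coding clec and nhr genes met it in 24 of 248 and 60 of 273 cases. Pseudogenes with only a sequence name made up 106 of the 135 and met the rule in 8.75% of cases, near the share of the whole class.

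**Figure D3:**
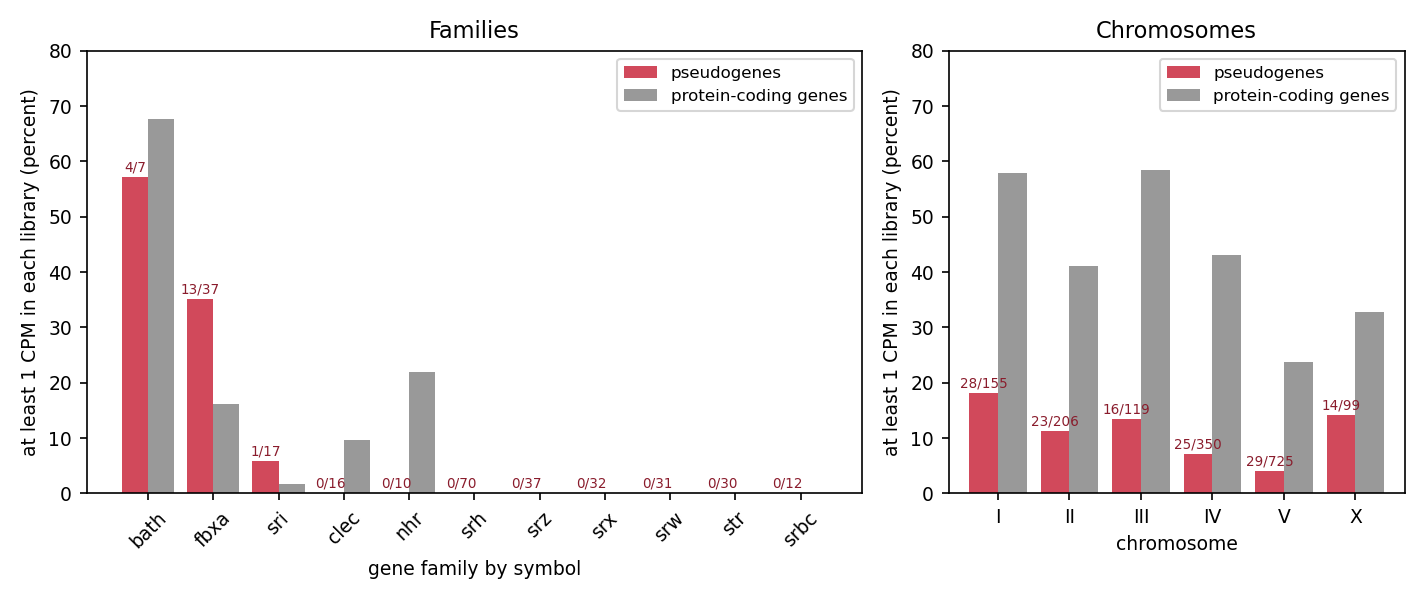
Percent of genes with at least 1 CPM in each library, for pseudogenes and for protein-coding genes of the same family (left) or chromosome (right), with the pseudogenes that met the rule over all pseudogenes above each bar. The bath and fbxa families stand at 57.1% and 35.1%, most chemoreceptor families at 0, and chromosome V is lowest for both classes.

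Chromosome V, which holds 43.8% of all placed pseudogenes, gave 29 of the 135, or 4% of its 725 pseudogenes. Chromosome I gave 28 of 155 (18.1%), III gave 16 (13.4%), II gave 23 of 206 (11.2%) and IV gave 25 of 350 (7.14%). The X chromosome gave 14 of 99 (14.1%). For protein-coding genes the shares were 23.7% on V, 57.9% on I, 58.4% on III, 41.1% on II, 43% on IV and 32.8% on X. Chromosome V was lowest in both classes, while X stood above II, III, IV and V among pseudogenes and above V alone among coding genes. These shares are descriptions, since the rule fixes which genes count.

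The structure of the transcribed pseudogenes, which the rule did not use, differed from that of the rest. A single exon was annotated for 10 of 135 (7.41%), against 508 of 1519 other pseudogenes with a position (33.4%). The median number of exons was 5 against 3, and the median exon length 1007 against 765 bases. CPM is not corrected for length, so at an equal level per length a longer gene passes the rule more readily.

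Some of the 135 lie on other genes. In the reference annotation, 20 (14.8%) shared exon bases with another gene on either strand, against 185 of 1519 other pseudogenes (12.2%). On the same strand 6 did so (4.44%), against 85 of the others (5.6%). For 17 (12.6%) the other gene was protein coding, against 5.27% of the other pseudogenes. The kit used does not mark strand, so reads of genes on opposite strands cannot be told apart where their exons overlap. In 15 of the 20, less than 50% of the exon bases were shared with any 1 gene.

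For 3 of the 20 all exon bases were shared. The exons of hpo-42 (chromosome V, 16027501 to 16029338), which had 96.5, 116.9 and 142.6 CPM, lie wholly within those of the coding gene T10C6.7 on the same strand, which had 44.1, 54.5 and 59.7 CPM. Both were lowest in replicate 1 and highest in replicate 3. Y49E10.5 (1.52, 2.12 and 4.74 CPM) lies within Y49E10.4 on the same strand (224.2, 313.5 and 257.7 CPM), and Y37H9A.4 (4.48, 3.92 and 5.04 CPM) within the Nudix hydrolase gene ndx-4 on the opposite strand (12.7, 18.4 and 14.2 CPM). The reads of these pairs cannot be assigned by position in this annotation. The deposited biotypes differ from it for some genes, so the exons used in the counting may differ from it as well.

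Transcribed pseudogenes lay beside transcribed genes more often than other pseudogenes did, in a minority of cases. A protein-coding gene within 500 bases was found for 43 of 135 (31.9%), against 574 of 1519 other pseudogenes (37.8%). A coding gene that itself met the rule lay within 500 bases for 30 (22.2%), against 96 (6.32%), and on the same strand for 21 (15.6%), against 45 (2.96%). Examples were Y48G1A.7 (1.79, 2.96 and 3.54 CPM), 482 bases downstream of the nuclear export receptor gene xpo-2 (183.4 CPM), and C25H3.18 (4.06, 6.42 and 3.84 CPM), 136 bases downstream of C25H3.9 (159.7 CPM). The part of these neighbours in the levels of the pseudogenes was not tested.

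Of the 135, 40 (29.6%) lay within 10000 bases of another of them, in 17 groups. Of all 1654 placed pseudogenes, a denser set, 1077 (65.1%) lay within that distance of another pseudogene. One group on chromosome I, from 12005177 to 12009625, held fbxa-124, fbxa-122 and fbxa-123 at means of 2, 2.19 and 6.61 CPM. Another on chromosome II, from 1913605 to 1928734, held bath-11, bath-6 and bath-22 at 1.49, 3.83 and 2.93 CPM. On chromosome V, from 16919780 to 16930063, fbxa-207 (3.43 CPM) lay near Y102A5C.5 and Y102A5C.6. Y102A5C.6 had 37.5, 27.6 and 62 CPM and Y102A5C.5 had 4.96, 4.82 and 12.5 CPM, both highest in replicate 3. Levels within a group could thus differ several-fold.

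The libraries differed at least 2-fold between the highest and the lowest for 34 of the 135 (25.2%), against 15.7% of all genes that met the detection rule. The gap was smaller under other scalings. By TMM, which corrects for composition, it was 26 of 134 (19.4%) against 16.4%, and by DESeq2 size factors 28 of 134 (20.9%) against 15.8%. On totals without rRNA and mitochondrial genes it was 31 of 139 (22.3%) against 16.7%. On library totals, with a library left out and the rule applied to the rest, the number was 23, 32 and 9 without replicates 1, 2 and 3. A ratio over fewer libraries cannot be larger, and the matching shares of all genes were not computed. Spread grows at low counts. Under a mean of 10 CPM the shares were 26.9% of 93 pseudogenes and 29.1% of all such genes, and from 10 CPM upwards 21.4% of 42 pseudogenes and 10.4% of all such genes. Exact Poisson 95% intervals of the highest and lowest library were apart for 70 of the 135 (51.9%), against 64% of all detected genes, a share that grows with the count.

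**Figure D4:**
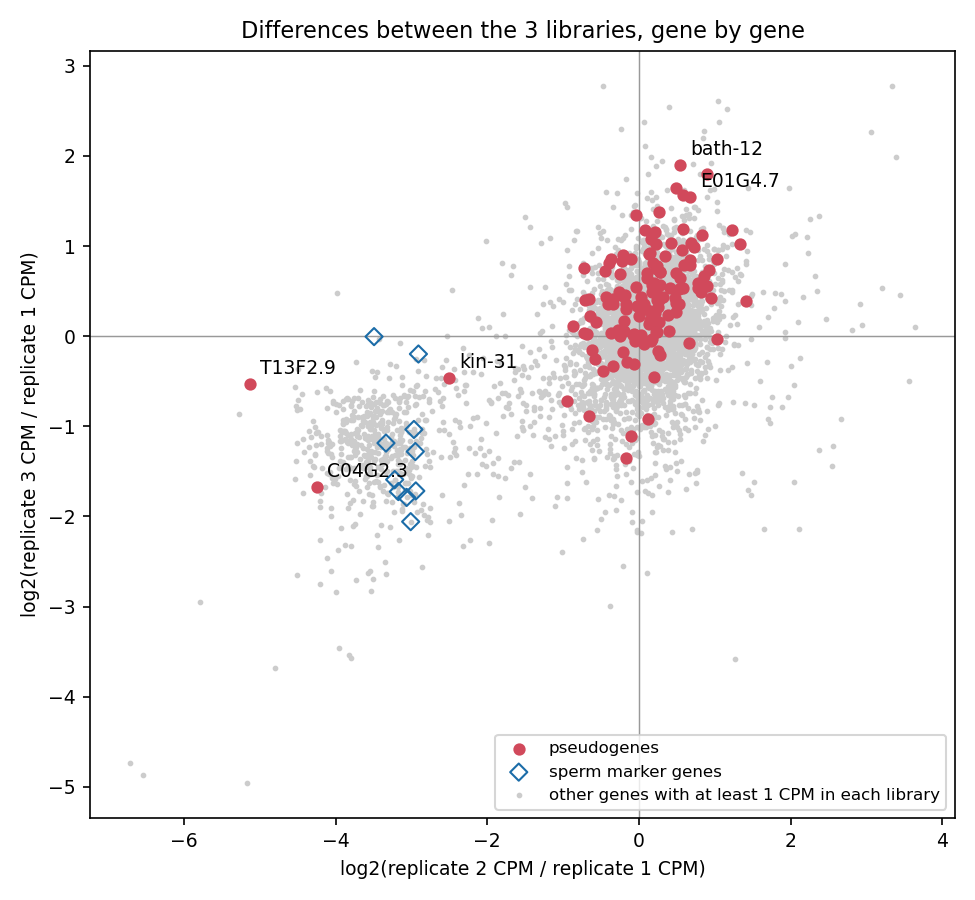
Each gene's log2 ratio of replicate 2 to replicate 1 (horizontal axis) and of replicate 3 to replicate 1 (vertical axis), in CPM, for the 135 pseudogenes, the 10 sperm marker genes and the other genes with at least 1 CPM in each library. T13F2.9 and C04G2.3 lie farther to the left than the sperm markers and kin-31 less far, and most other pseudogenes lie above the horizontal line.

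A level in replicate 2 of at most 50% of that in both other libraries was found for 3 of the 135 (2.22%, against 7.04% of all detected genes). These 3 held the largest ratios. The rule asks for at least 1 CPM in replicate 2, so low genes that drop there are left out, among them 28 pseudogenes described below. The shares therefore do not show how often pseudogenes drop in replicate 2. T13F2.9 (WBGene00011748, chromosome IV, 9768057 to 9768984) had 450.6, 12.8 and 310.9 CPM, from 6544, 200 and 5178 counts, a ratio of 35.1. C04G2.3 (chromosome IV, 10093061 to 10093511) had 79.1, 4.18 and 24.8 CPM, a ratio of 18.9. The pseudogene kin-31, named for a protein kinase, (chromosome III, 8671772 to 8673626) had 6.54, 1.16 and 4.74 CPM, a ratio of 5.66. The mean levels of these genes rest on which libraries are averaged, and without replicate 2 that of T13F2.9 would be higher.

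Sperm genes and the cuticle collagen genes col-140 and col-19 were also lowest in replicate 2. T13F2.9 lies between the major sperm protein genes msp-79 (42.2, 5.33 and 15.6 CPM) and msp-78 (256.7, 27.6 and 103.3 CPM), which encode the cytoskeletal protein of nematode sperm. The sperm protein gene ssp-36, next to msp-79, had 3.99, 0.321 and 3.12 CPM. The genes sna-2 and T13F2.6 of the same stretch had 92.4, 90.8 and 97.6 CPM and 275.1, 307.7 and 332.7 CPM, with no drop in replicate 2. C04G2.3 lies near msp-36 (803.8, 104.5 and 294 CPM), and its neighbours C04G2.2 (16.7, 1.54 and 7.87 CPM) and C04G2.5 (8.88, 0.707 and 4.56 CPM) were also lowest in replicate 2. The genes ndc-80 (102.5, 96.7 and 109.1 CPM) and dis-3 (122.6, 111.5 and 126.8 CPM) of that stretch showed no such drop. All 10 sperm markers were lowest in replicate 2, while the 10 oocyte markers summed to 23610, 29690 and 27390 CPM. The 4 cuticle markers summed to 526.5, 39.2 and 111 CPM, most of it from col-140 (423.7, 30.4 and 84.7 CPM) and col-19 (102.7, 8.8 and 16.9 CPM). The other cuticle markers were low, with rol-6 at 0 in replicates 1 and 2 and dpy-13 at 0.138, 0 and 9.07 CPM, highest in replicate 3. In these bulk samples fewer cells of a type and less RNA per cell cannot be told apart, and the part of sperm or cuticle RNA in the pseudogene levels was not tested.

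The rule left out 30 pseudogenes that had at least 1 CPM in replicates 1 and 3 and less in replicate 2. Of these, 28 were at most 50% of both other libraries in replicate 2 and 11 had no count there. Together they had 244.4, 5.78 and 117.2 CPM. The highest was ZK546.3 (45.5, 0.45 and 16.3 CPM). It was followed by the sperm protein pseudogene msp-71, with 436, 1 and 193 counts (30, 0.0642 and 11.6 CPM), by Y4C6A.68 (28.9, 0.321 and 6.42 CPM) and by msp-42, with 315, 0 and 188 counts. In contrast, 17 pseudogenes were left out by replicate 1 alone and 3 by replicate 3 alone.

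More of the 135 were highest in replicate 3 than in the other libraries, 86 (63.7%) against 45.9% of all detected genes. Scaled by TMM, which corrects for composition, the counts were 68 of 134 (50.7%) against 29.3%. The rule shapes these shares, since of the 30 pseudogenes left out by replicate 2 alone, 23 were highest in replicate 1. The sets also differ in level, with 68.9% of the 135 and 28.3% of all detected genes under a mean of 10 CPM. On library totals, at least 2 times more CPM in replicate 3 than in replicate 1 was found for 17 (12.6%), against 2.18% of all detected genes. Differences of 2-fold are more frequent at low levels, and these shares were not computed by level or under another scaling. The largest excesses of replicate 3 over replicate 1 at a mean of at least 5 CPM were those of bath-12, with a ratio of 3.73, and of E01G4.7 (chromosome II, 13477471 to 13478929), at 13, 20.7 and 37.8 CPM. The pseudogene lrg-1 was highest in replicate 3 as well, at 14.4, 8.74 and 24.3 CPM. The fbxa and bath families, with 13 and 4 of the 135, gave 5 of the 17, fbxa-203, fbxa-207, fbxa-198, bath-12 and bath-11. The matching share of the coding fbxa and bath genes was not computed. The 6 markers of meiotic germ cells summed to 2355, 1987 and 3125 CPM, most of it from glh-1 (1533, 1288 and 2231 CPM). Of these markers 5 were highest in replicate 3 and gld-1 in replicate 1 (205.5, 167.7 and 186.9 CPM), and their part in this difference was not tested.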

How the data were processed

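RNA of dissected N2 germlines was measured in 3 libraries, made per the labels' protocols with a SMART-Seq v4 Ultra Low Input kit. The authors deposited unnormalized counts of reads per gene, in 1 column a library. STAR, featureCounts and the build WBcel235 are named in the submitters' processing notes. Their versions, the annotation release, the strand option and the treatment of multiply mapped reads are not stated there.

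CPM were computed on library totals. TPM used the merged exon length of each gene in the Ensembl annotation of WBcel235, which also gave positions, overlaps and current biotypes; RefSeq's table of WBcel235 named 3 unnamed genes. All 135 genes had a position. The members, lists and alternatives were chosen with earlier results of these data known. The genes named were the 12 of highest mean CPM, the 5 of highest TPM, the 5 of largest library ratio at a mean of at least 5 CPM, the 3 on either side of the threshold, the 2 highest of each family and overlapping genes; others were named after their values were seen. Families were defined by the letters before the hyphen of a symbol. With 1 group, no test between conditions was run. Ratio calls were tried only on simulated counts that held counting error alone. The changes planted there were larger than 2-fold, in replicate 2, in genes of at least 10 CPM. That simulation does not cover calls near 2-fold, in other libraries or under 10 CPM. Python 3.11.15, edgeR 4.0.16 (TMM) and DESeq2 1.42.0 (size factors) were used. The shares of unique sequence and the closest coding relative by sequence were not analysed here.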

Additional observations from a re-analysis of the deposited data

How the results depend on the processing

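Precision was limited by depth for the 93 genes under 10 CPM and by the 3 libraries for all. The number of pseudogenes that met the rule, 135, was 53 and 33 at minima of 5 and 10 CPM and 319 with any count in each library. Minima of 0.5 and 2 CPM, 10 raw counts, 2 of 3 libraries and other scalings gave 96 to 185, and leaving out a library gave 138 to 165. The summed level, 3256 CPM, was 3540 CPM on totals without rRNA and mitochondrial genes and 2068 CPM over the 110 genes still annotated as pseudogenes and free of exon overlaps, a choice made after seeing the data. Leaving out a library gave 3154 to 3571 CPM, the highest without replicate 2. The median level, 4.48 CPM, stayed between 3.82 and 4.78 CPM under the alternatives run in CPM, and was 5.17 in TPM. Exon overlaps numbered 20 on either strand, 6 on the same strand and 33 with introns included. The 34 genes that differed at least 2-fold between libraries were 78 at 1.5-fold and 70 by Poisson intervals, and 9 to 32 when a library was left out, the lowest without replicate 3. Of 72 alternative values for the levels of the 12 highest genes, 69 moved by less than the spread between libraries. Values with a library left out could not move further than that spread, so they carry no weight in this count. The 3 that moved further came from totals without rRNA and mitochondrial genes. No paired analysis was possible because all libraries belong to 1 group. The alternatives that need genome sequence were not run.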
